A study of Homo sapiens with 24 samples.

Results

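Aminoacyl-tRNA synthetases join each amino acid to the tRNAs that carry it, so that the ribosome can place it in a growing protein. Human cells keep largely separate sets of these enzymes for the cytosol and for the mitochondrion, all encoded by nuclear genes, and several cytosolic members sit together in a multisynthetase complex. In many cell types the cytosolic synthetase genes are known targets of ATF4, a transcription factor of the integrated stress response. The genes described here are 35 aminoacyl-tRNA synthetase genes among the 60675 genes of the deposited expected-count table. They were taken by symbol, with symbols ending in 1, FARSA and FARSB forming the cytosolic set (19 genes) and symbols ending in 2 the mitochondrial set (16 genes). Within the cytosolic set, GARS1, KARS1 and QARS1 were set apart as 3 genes whose products are counted as serving both compartments.

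RNA was sequenced from SW1783, a human astrocytoma cell line, after 24 h in the presence of an extract of Schisandrae Fructus (SF), the fruit of Schisandra chinensis. The water extract (WESF) was given in batch A at 500 (high), 100 (medium) and 20 (low) µg/mL. The ethanol extract (EESF) was given in batch B at 310 (high), 62 (medium) and 12.4 (low) µg/mL, and each batch had its own vehicle, 0.1% DMSO. Each of the 8 groups held 3 libraries, 24 in all, from 1 cell line, and the sources used here do not say whether the 3 were separate cultures, so that p-values measure the spread between these libraries, which may be technical. The authors set both high doses from a cytotoxicity screen, that of EESF at a mildly cytotoxic concentration and that of WESF at one without toxicity. The high doses therefore differed in amount and in their toxicity in that screen. Because each extract was run in its own batch, extract and batch cannot be told apart.

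Library totals ranged from 18727797 to 32567395 expected counts, lowest in vehicle B (18727797 to 20465712) and highest in high-dose EESF (29659110 to 32567395). All 35 synthetase genes passed the filter on low counts in every comparison, and the lowest count of any of them in any library was 89, for MARS2. The cell label was checked against markers of astrocytes and of other cell types. Of 6 astrocyte markers, SLC1A3 was well counted (220 to 931 counts per library), while GFAP, S100B, AQP4, ALDH1L1 and SLC1A2 had at most 14 counts in any library. VIM, an intermediate filament gene of glioma cells, had 87991 to 169178 counts, NES had 62 to 212 and SOX2 at most 2. The neuronal genes SNAP25 and SYT1 were about as abundant as SLC1A3, with 24.3 and 20.6 CPM (counts scaled to a common library size) beside 24.4 CPM on average over the libraries. Of the astrocyte markers SLC1A3 alone was well counted, so the markers bear out the label only in part.

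In the vehicle libraries the cytosolic set was the more abundant one. On the scale of CPM per kilobase of transcript, the median level was 55.97 for the 19 cytosolic and 6.756 for the 16 mitochondrial genes, as means of the 6 vehicle libraries. WARS1, the cytosolic tryptophanyl-tRNA synthetase, was the highest of all (89.8 ± 3.2 CPM per kb, SD, n = 6), followed by IARS1 (85.5 ± 1.6) and GARS1 (82 ± 2.6), and neighbours in this order overlapped within 1 SD. FARSB, the beta subunit of the phenylalanyl-tRNA synthetase, was the lowest of its set at 12.4 ± 0.25 CPM per kb. Its canonical transcript is long (6761 bases), and in CPM without length it was close to its partner subunit FARSA, with 82.7, 81.8 and 82.4 CPM in vehicle A against 89.1, 84 and 85 CPM. Among the mitochondrial genes CARS2, the cysteinyl-tRNA synthetase, stood apart at 51.1 ± 1.6 CPM per kb, a level among those of the cytosolic genes, and IARS2 followed at 34.7 ± 1.1. MARS2, the methionyl-tRNA synthetase, was the lowest of the 35 at 1.8 ± 0.16 CPM per kb.

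**Figure D1:**
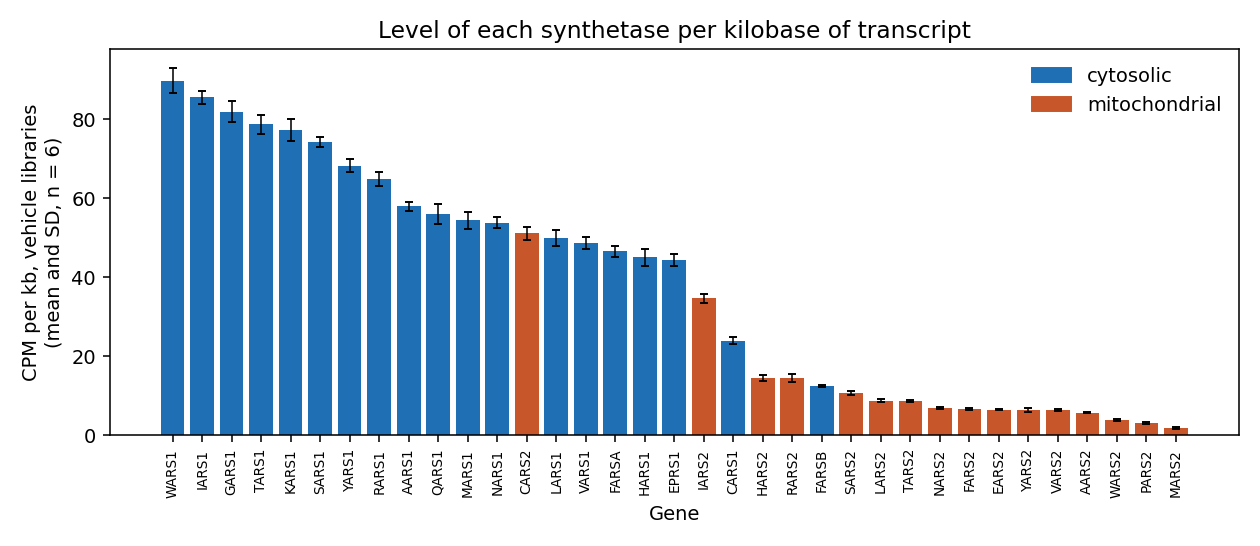
Level of each synthetase gene in the 6 vehicle libraries, in CPM per kilobase of canonical transcript (vertical axis; bars are means and whiskers SDs, n = 6), with genes in order of level and colours for the cytosolic and mitochondrial sets. CARS2 and IARS2 stand above CARS1, and HARS2 and RARS2 stand above FARSB, while all other mitochondrial bars lie below every cytosolic one.

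Promoter sequences were examined because the cytosolic genes moved together at the high doses, and they are shown first so that the values below can be read beside them. RefSeq windows of GRCh38.p14, from 250 bases before to 50 bases after the gene start, were found for 30 of the 35 genes (16 cytosolic, 14 mitochondrial), and LARS1, VARS1, YARS1, AARS2 and VARS2 had no window. They were searched on both strands for TGATGNAA, the composite element that ATF4 can bind with a C/EBP partner, and for CGCANGCG, the core of the site of NRF1, a regulator of nuclear genes for mitochondrial proteins. TGATGNAA was found in 7 of the 16 cytosolic windows (43.8%), in 1 of the 14 mitochondrial windows (7.14%) and in 571 of 15843 windows of all protein-coding genes (3.6%). CGCANGCG was found in 4 of the 16 cytosolic (25%) and 4 of the 14 mitochondrial windows (28.6%), and in 2632 of the 15843 (16.6%). The 7 cytosolic matches to TGATGNAA are printed below, 5′ to 3′ on the strand of the gene, with the matched bases in capitals. In all but NARS1 the match reads as the reverse complement.
AARS1: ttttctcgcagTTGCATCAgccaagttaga
CARS1: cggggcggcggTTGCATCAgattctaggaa
GARS1: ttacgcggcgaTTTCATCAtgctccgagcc
IARS1: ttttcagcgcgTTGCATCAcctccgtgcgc
MARS1: gccggttccggTTGCATCAgcgagggattc
NARS1: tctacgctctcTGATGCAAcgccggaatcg
TARS1: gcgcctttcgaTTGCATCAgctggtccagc

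These stretches lie at chr16:70289675-70289704, chr11:3057407-3057436, chr9:92293692-92293721 and chr18:57621804-57621833 on the minus strand and at chr7:30594834-30594863, chr12:57488053-57488082 and chr5:33440956-33440985 on the plus strand. The match in AARS1 was the one farthest from the RefSeq start, from position -187 to -180. That of GARS1 ran from -33 to -26, that of IARS1 from -13 to -6, and that of NARS1 lay after the start, from 15 to 22. The matches of AARS1, CARS1, IARS1, MARS1 and TARS1 shared the same 8 letters, and GARS1 did not share them. The single mitochondrial match was in YARS2. A match of these letters is a description of the window and says nothing of whether a factor binds there.

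With high-dose WESF the cytosolic set rose almost as a whole. Of its 19 genes, 16 were higher than in vehicle A, 2 were lower (HARS1 and IARS1) and FARSB did not pass the test (edgeR's quasi-likelihood test with Benjamini-Hochberg adjustment, adjusted p under 0.05), where 34.3% of the 13129 genes tested were called higher and 34.6% lower. Of the 16 mitochondrial genes 6 were higher, 5 were lower and 5 did not pass, shares close to those of all genes tested. The median log2 fold change was 0.34 for the cytosolic and 0.10 for the mitochondrial set, beside 0.000823 over all genes tested, and the mitochondrial value was 0.0648 without vehicle A replicate 3 and 0.0603 with counts thinned to the lowest total. DEGs, which also needed a fold change beyond 1.5, were AARS1, GARS1, CARS1, MARS1, YARS1 and TARS2 among the higher genes (11.1% of all genes tested) and CARS2 among the lower (13% of all genes tested). YARS1 and CARS2 lay close to the fold-change threshold of 0.585 on the log2 scale, and each fell inside it in 3 of the 6 fits that left out 1 library. For YARS1 these were the fits without vehicle A replicate 2 or 3 or WESF replicate 2 (lowest 0.561), and for CARS2 those without vehicle A replicate 3 or WESF replicate 1 or 3 (-0.559).

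High-dose EESF gave 15 higher and 0 lower cytosolic genes, with FARSB, HARS1, IARS1 and QARS1 not passing the test, where 29.3% of the 13092 genes tested were called higher and 28.7% lower. In the mitochondrial set 6 genes were higher, 4 were lower and 6 did not pass. Median log2 fold changes were 0.25 and 0.11 for the cytosolic and the mitochondrial set, beside 0.007 over all genes tested. The DEGs were CARS1, TARS2 and MARS2 among the higher genes (8.21% of all genes tested) and WARS2 among the lower (9.17% of all genes tested). CARS1 was inside the fold-change threshold without vehicle B replicate 3 (0.558) or EESF replicate 2 or 3, and MARS2 without vehicle B replicate 2 (0.569). Both extracts were compared with their own vehicles, and same-numbered vehicle libraries of the 2 batches deviated together over well-counted genes, so the vehicles may not be independent of each other.

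The summed level of the cytosolic set was 3279, 3280 and 3242 CPM in vehicle A and 4225, 4456 and 4224 CPM with high-dose WESF. It was 3228, 3231 and 3202 CPM in vehicle B and 3848, 3921 and 3915 CPM with high-dose EESF. In both batches the 3 high-dose libraries were above every vehicle library, at 132% ± 4.1 and 121% ± 1.27 of the vehicle mean (SD, n = 3). The summed level of the mitochondrial set was 526, 528 and 524 CPM in vehicle A and 516, 538 and 505 CPM with high-dose WESF. It was 522, 514 and 504 CPM in vehicle B and 522, 528 and 522 CPM with high-dose EESF. The mitochondrial sums of high dose and vehicle overlapped in both batches, at 98.8% ± 3.21 and 102% ± 0.723 of the vehicle mean. By mean log2 CPM, in contrast, the mitochondrial set of every high-dose EESF library lay above every vehicle B library. As differences from the vehicle B mean, the values were 0.0667, 0.0802 and 0.0745 against 0.0307, 0.0032 and -0.034. The medium-dose EESF libraries were at 0.0475, 0.0354 and 0.0155 and the low-dose ones at 0.0695, 0.0231 and 0.0036. The high-dose values were thus not separated from those of the lower doses. With high-dose WESF the dose and vehicle libraries overlapped on this scale as they did in the sums. These sums and means were described without a test.

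The distance between the sets, taken as the mean log2 CPM of the cytosolic minus that of the mitochondrial genes, was 2.76 ± 0.00603 in vehicle A and 3.09 ± 0.0196 with high-dose WESF (SD, n = 3). It was 2.76 ± 0.0206 in vehicle B and 2.98 ± 0.0189 with high-dose EESF. At the medium and low doses of both extracts the group means lay between 2.73 and 2.78. Each high-dose library therefore had a larger distance between the sets than any of the other libraries.

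**Figure D2:**
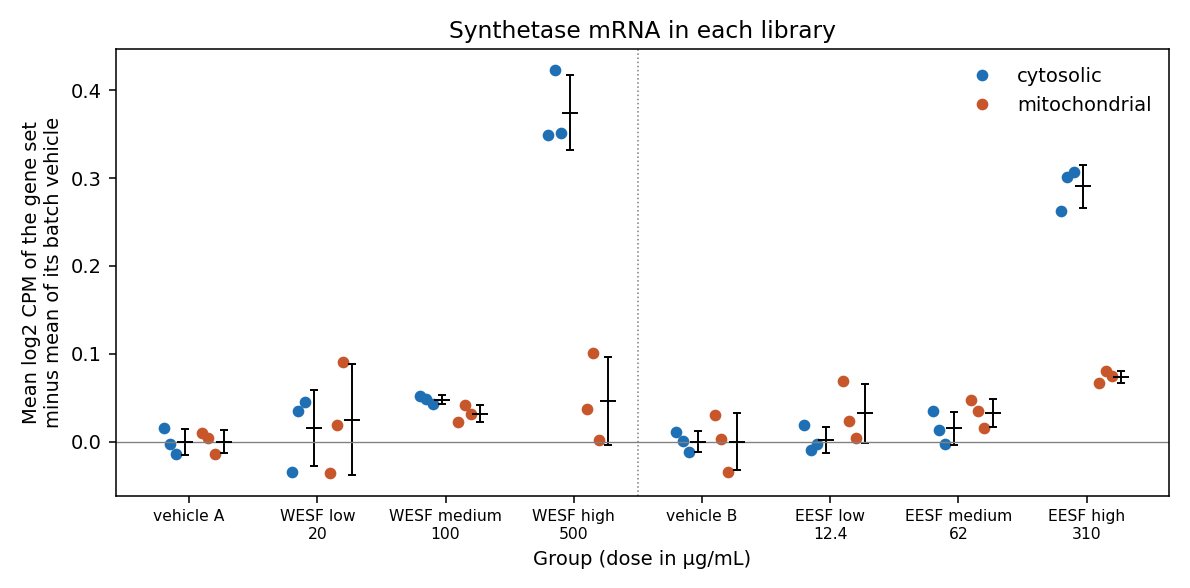
Mean log2 CPM of the 19 cytosolic and the 16 mitochondrial genes in each library, as a difference from the mean of the vehicle of the same batch (vertical axis), by group with the dose in µg/mL (horizontal axis). Points are libraries, and crosses with whiskers are means and SDs (n = 3). The cytosolic points of both high doses lie above all others, at 0.374 ± 0.0424 for WESF and 0.29 ± 0.0243 for EESF.

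Some cell type markers also differed at the same doses, as sums described without a test. The sum of VIM, NES and SOX2, nearly all VIM, was 4828 ± 49.3 CPM in vehicle A and 4798 ± 101 CPM with high-dose WESF, and 4928 ± 16.8 CPM in vehicle B and 5283 ± 192 CPM with high-dose EESF (SD, n = 3). The neuronal markers RBFOX3, SYT1 and SNAP25 summed to 53.5 ± 2.06 CPM in vehicle A and 23.01 ± 1.15 CPM with high-dose WESF, and to 56 ± 0.903 CPM in vehicle B and 25.93 ± 2.54 CPM with high-dose EESF (SD, n = 3). SNAP25 was the most abundant of them on average over the 24 libraries, and RBFOX3, the defining nuclear marker of neurons, had at most 21 counts in any library. The 6 astrocyte markers, nearly all SLC1A3, summed to 32.4 ± 1.64 and 10.78 ± 0.617 CPM in batch A and to 32.14 ± 0.919 and 12.59 ± 0.903 CPM in batch B. At the medium doses the astrocyte sum was 25.32 ± 1.02 CPM with WESF and 26.36 ± 1.2 CPM with EESF, also below the vehicle, and the neuronal sum was 45.01 ± 2.03 and 52.36 ± 2.5 CPM. The 3 oligodendrocyte markers, nearly all MBP with MOG at 0 in every library, summed to 7.049 ± 0.535 and 12.82 ± 1.39 CPM in batch A and to 6.927 ± 0.384 and 9.825 ± 0.289 CPM in batch B. Microglial, endothelial and epithelial lists summed to at most 1.068 CPM in every group. In bulk RNA fewer cells of a type and less RNA per cell cannot be told apart. The part of these shifts in the synthetase values was not tested.

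At the lower doses few synthetases moved. With medium-dose WESF, TARS2 was the 1 gene of 35 to pass the test (log2 fold change 0.26 ± 0.05, edgeR adjusted p = 0.0134), where 1.89% of all genes tested were called higher and 2.2% lower. TARS2 was measured at 28.8, 28.2 and 28.2 CPM there against 23.6, 23.5 and 23.8 CPM in vehicle A, and the groups did not overlap. Its call was lost without vehicle A replicate 2, without medium-dose replicate 2 or 3, and with the replicate number as a block. With low-dose WESF 0 synthetases passed, as did 0% of all genes tested in the higher and 0% in the lower direction with edgeR, and before adjustment 470 of 13131 genes (3.58%) were under 0.05.

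FARSA, the alpha subunit of the phenylalanyl-tRNA synthetase, was the single synthetase to pass at the lower doses of EESF, and was chosen for this after its values were seen. In vehicle B it was measured at 83.9, 81.9 and 81.7 CPM. It reached 92.2, 95.2 and 89.4 CPM at the low, 97.8, 96.7 and 94.6 CPM at the medium and 108, 120.2 and 128 CPM at the high dose. All libraries of every EESF dose were above every vehicle library, with log2 fold changes of 0.15 ± 0.04 (low), 0.23 ± 0.04 (medium) and 0.53 ± 0.06 (high), as estimates with their SE. The edgeR adjusted p was 0.039, 0.00361 and 2.33e-05 in that order. The low-dose call was lost when any library other than vehicle B replicate 1 was left out, and with all 4 groups of the batch in the fit. At the medium dose 6.9% of all genes tested were called higher and 8.48% lower, and at the low dose 3.11% and 6.24%.

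**Figure D3:**
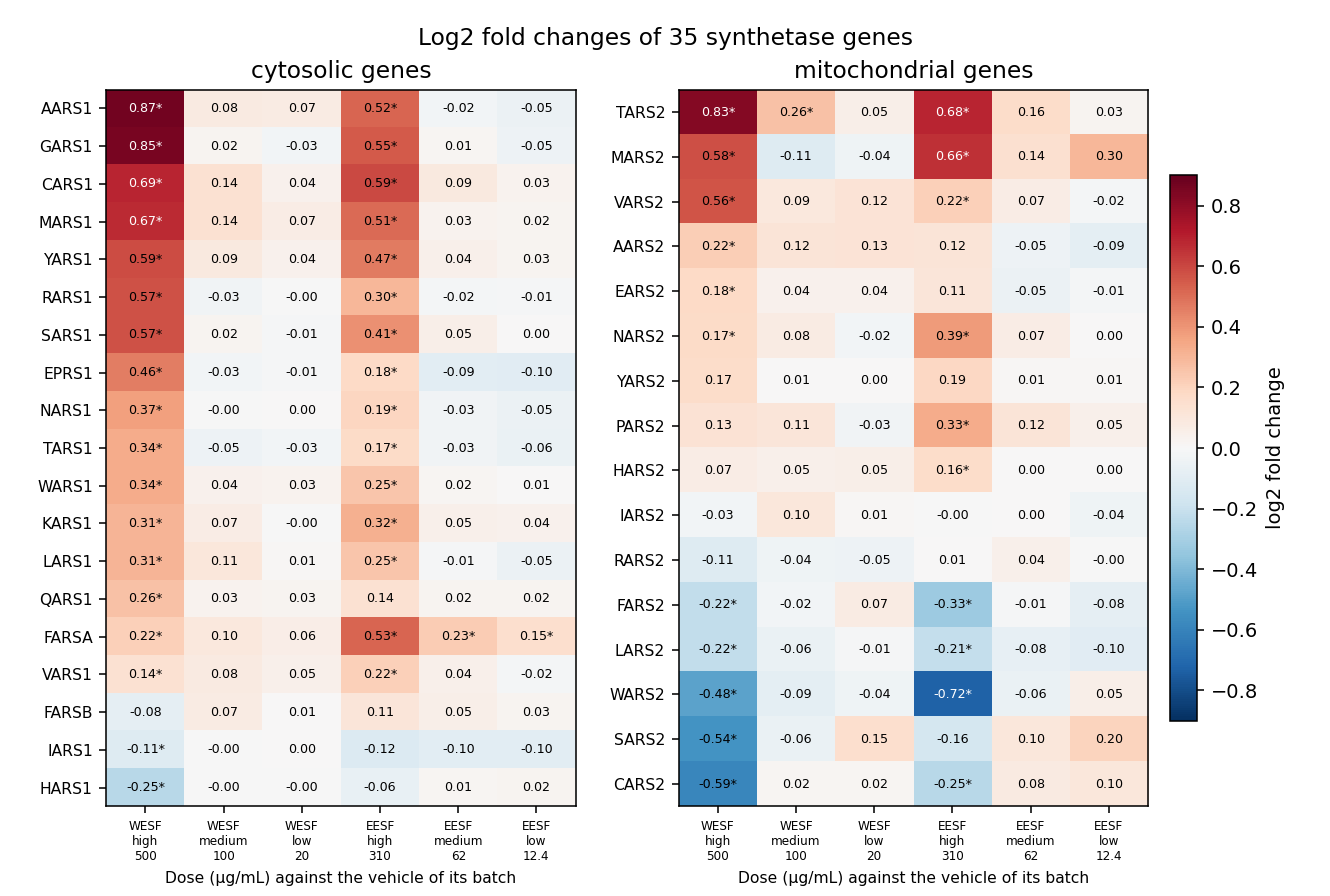
Log2 fold change of each of the 35 genes (rows, in order of the change with high-dose WESF) at each dose in µg/mL against the vehicle of its batch (columns), by set. Asterisks mark an adjusted p under 0.05 (edgeR), and colours run from lower (blue) to higher (red). The called changes lie in the 2 high-dose columns except for TARS2 at the medium dose of WESF and FARSA at the medium and low doses of EESF.

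Among the cytosolic genes AARS1, the alanyl-tRNA synthetase (chr16:70251983-70289707), had the largest estimated change with WESF, not separated from that of GARS1. Leaving out 1 library gave log2 fold changes of 0.813 to 0.895 for AARS1 and 0.832 to 0.877 for GARS1. AARS1 was measured at 198, 203 and 193 CPM in vehicle A and 345, 390.4 and 349.9 CPM with high-dose WESF. Vehicle B gave 199.7, 201 and 201 CPM and high-dose EESF 280.0, 297 and 287 CPM. The groups did not overlap in either batch, and the log2 fold change was 0.87 ± 0.05 (SE) with WESF (edgeR adjusted p = 1.43e-10), which is 1.83-fold, and 0.52 ± 0.05 with EESF (adjusted p = 2.61e-06).

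GARS1, the glycyl-tRNA synthetase, serves both compartments from 1 gene. It was measured at 200.1, 208 and 195 CPM in vehicle A and 359, 370.2 and 360.1 CPM with high-dose WESF. In vehicle B it was measured at 195, 207 and 194 CPM and with high-dose EESF at 280.2, 293 and 300.4 CPM. High-dose libraries lay above all vehicle libraries of their batch, with a log2 fold change of 0.85 ± 0.04 with WESF (edgeR adjusted p = 2.42e-11) and 0.55 ± 0.05 with EESF (adjusted p = 2.95e-06). KARS1, the lysyl-tRNA synthetase, is the second gene used in both compartments. It rose from 159.9, 156 and 153 CPM to 188, 196 and 195 CPM with high-dose WESF (0.31 ± 0.04, edgeR adjusted p = 5.88e-06). In batch B it rose from 159, 146 and 149 CPM to 186, 191 and 190.1 CPM (0.32 ± 0.05, edgeR adjusted p = 0.000178), again with no overlap of the groups. QARS1, the glutaminyl-tRNA synthetase, rose with WESF, from 136, 135 and 146 CPM to 162, 171 and 166 CPM (0.26 ± 0.05, edgeR adjusted p = 7.5e-05). With EESF it was at 139.7, 151 and 155 CPM against 141, 127 and 137 CPM in vehicle B, groups that overlapped, and the change of 0.14 ± 0.06 did not pass the test (edgeR adjusted p = 0.0644). It passed with all 4 groups of the batch in the fit, with counts thinned to the lowest total and without EESF replicate 1 (edgeR adjusted p = 0.0221, 0.0348 and 0.0134), and was 0.085 without vehicle B replicate 2.

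CARS1, the cysteinyl-tRNA synthetase, was the cytosolic gene that was a DEG at the high dose of each extract, with EESF only just beyond the fold-change threshold. Its values were 68.5, 64.9 and 65.4 CPM in vehicle A and 103, 114 and 104 CPM with high-dose WESF. They were 66.2, 66.1 and 61.6 CPM in vehicle B and 90.7, 101 and 101 CPM with high-dose EESF. Neither pair of groups overlapped, and the log2 fold change was 0.69 ± 0.05 with WESF (edgeR adjusted p = 2.01e-09) and 0.59 ± 0.06 with EESF (adjusted p = 5.02e-06). MARS1, which charges both initiator and elongator methionine tRNAs and belongs to the multisynthetase complex, was at 161, 149 and 146 CPM in vehicle A and 243, 247 and 235 CPM with high-dose WESF. The batch B values were 156, 154 and 147 CPM in the vehicle and 207, 226 and 217 CPM with high-dose EESF. It rose by a log2 fold change of 0.67 ± 0.05 with WESF and 0.51 ± 0.05 with EESF (edgeR adjusted p = 1.19e-09 and 6.07e-06), with no overlap of the groups. YARS1, the tyrosyl-tRNA synthetase, was at 173, 166 and 162 CPM in vehicle A and 242, 263 and 249 CPM with high-dose WESF. In batch B it was at 169.7, 163 and 168 CPM and 229, 229 and 235 CPM. Its libraries likewise did not overlap, and it rose by 0.59 ± 0.05 and 0.47 ± 0.05 on the log2 scale (edgeR adjusted p = 4.81e-09 and 5.07e-06).

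The remaining called cytosolic genes changed by less than 1.5-fold. WARS1, the most abundant member per kilobase, rose from 237, 244 and 234 CPM to 306, 309 and 288 CPM with high-dose WESF (0.34 ± 0.04, edgeR adjusted p = 2.8e-06). It rose from 235, 248 and 224 CPM to 282, 289 and 268 CPM with high-dose EESF (0.25 ± 0.05, edgeR adjusted p = 0.00201). Both increases were larger than the spread between libraries. The other cytosolic genes that rose with both extracts were RARS1, SARS1, EPRS1, NARS1, TARS1, LARS1, FARSA and VARS1, with log2 fold changes from 0.14 (VARS1) to 0.57 (RARS1) with WESF and from 0.17 (TARS1) to 0.53 (FARSA) with EESF. HARS1, the histidyl-tRNA synthetase, fell with WESF (-0.25 ± 0.05, edgeR adjusted p = 0.000319). IARS1, the isoleucyl-tRNA synthetase, fell by a smaller step (-0.11 ± 0.04, edgeR adjusted p = 0.0204). With EESF neither passed, at -0.06 ± 0.05 (adjusted p = 0.326) and -0.12 ± 0.05 (adjusted p = 0.0701).

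The 7 cytosolic members of the multisynthetase complex (EPRS1, IARS1, KARS1, LARS1, MARS1, QARS1 and RARS1) are given beside the free enzymes. With high-dose WESF 6 rose and IARS1 fell, with a median log2 fold change of 0.31, and of the other 12 cytosolic genes 10 rose and 1 fell, with a median of 0.35. With high-dose EESF 5 of the 7 rose (median 0.25) and 10 of the 12 (median 0.33). Of all genes tested 34.3% rose and 34.6% fell with WESF, and 29.3% and 28.7% with EESF. Of the 3 scaffold genes of the complex, EEF1E1 rose with WESF (0.34 ± 0.06, edgeR adjusted p = 5.15e-05) and AIMP2 fell (-0.27 ± 0.05, adjusted p = 0.000149). With EESF 2 of the 3 scaffold genes rose and 0 fell, and AIMP2 was at 0.10 ± 0.07 (adjusted p = 0.215).

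The 7 cytosolic genes with a TGATGNAA match had a median log2 fold change of 0.67 with high-dose WESF and 0.51 with high-dose EESF, beside 0.31 and 0.25 for the 9 cytosolic genes whose window held no match. With WESF 6 of the 7 rose, and so did 7 of the 9, where 34.3% of all genes tested were called higher. With EESF 6 of the 7 and 6 of the 9 rose, where 29.3% of all genes tested were called higher. The cytosolic DEGs with WESF that had a window, AARS1, CARS1, GARS1 and MARS1, all carried a match, as did NARS1 and TARS1, which rose without being DEGs, and IARS1, which fell. No window was given for YARS1, the other cytosolic DEG. These are descriptions of genes chosen with the changes known, with no test. YARS2, the mitochondrial gene with a match, changed by 0.17 ± 0.08 and 0.19 ± 0.08 with the 2 extracts and did not pass either test (edgeR adjusted p = 0.0608 and 0.0523).

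Among the mitochondrial genes TARS2, the threonyl-tRNA synthetase (chr1:150487414-150507602), showed the largest increase with WESF. With EESF its estimate was also the largest but not separated from that of MARS2. Leaving out 1 library gave 0.612 to 0.732 for TARS2 and 0.569 to 0.695 for MARS2 with EESF. TARS2 was measured at 23.6, 23.5 and 23.8 CPM in vehicle A and 41, 43 and 41.8 CPM with high-dose WESF. In vehicle B it was measured at 24.5, 24.4 and 22 CPM and with high-dose EESF at 35.4, 41.5 and 37.2 CPM. All high-dose libraries were above all vehicle libraries, and the log2 fold change was 0.83 ± 0.05 with WESF (edgeR adjusted p = 4.26e-10), which is 1.77-fold, and 0.68 ± 0.08 with EESF (adjusted p = 9.63e-06). MARS2, the least abundant synthetase, was at 5.64, 5.89 and 5.76 CPM in vehicle A and 8.51, 8.72 and 8.63 CPM with high-dose WESF. The corresponding levels with EESF were 5.41, 4.55 and 5.41 CPM (vehicle B) and 8.91, 7.73 and 7.64 CPM (high dose). It rose by 0.58 ± 0.09 and 0.66 ± 0.11 on the log2 scale (edgeR adjusted p = 2.99e-05 and 0.000301), with no overlap of the groups. VARS2, the valyl-tRNA synthetase, was at 22.7, 21.9 and 22.3 CPM in vehicle A and 33.8, 33.7 and 31.4 CPM with high-dose WESF, and it rose (0.56 ± 0.06, edgeR adjusted p = 1.29e-07). In batch B it was at 23.3, 23.4 and 22.6 CPM and 25.7, 29.6 and 25.3 CPM, and the increase of 0.22 ± 0.07 (edgeR adjusted p = 0.0229) lost its call without any 1 of the vehicle B libraries and without high-dose EESF replicate 2 (adjusted p between 0.0117 and 0.123 over all alternatives).

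The largest mitochondrial decreases were in CARS2 with WESF and WARS2 with EESF. CARS2, the cysteinyl-tRNA synthetase (chr13:110641412-110713603), was at 94.6, 96.1 and 97.6 CPM in vehicle A and 60.9, 69.9 and 61.2 CPM with high-dose WESF. Its level was 94.4, 89.7 and 91 CPM in vehicle B and 71.9, 80.8 and 79.2 CPM with high-dose EESF. It fell with both, without overlap, at -0.59 ± 0.05 with WESF (edgeR adjusted p = 3.58e-08) and -0.25 ± 0.06 with EESF (adjusted p = 0.00299). WARS2, the tryptophanyl-tRNA synthetase, was at 9.18, 10.3 and 10.7 CPM in vehicle A and 7.28, 7.49 and 6.88 CPM with high-dose WESF. Vehicle B held 11.3, 10.3 and 10.9 CPM of it and high-dose EESF 6.25, 6.33 and 7.11 CPM. It fell without overlap by log2 fold changes of -0.48 ± 0.09 and -0.72 ± 0.09 (edgeR adjusted p = 0.000209 and 3.05e-05). SARS2, the seryl-tRNA synthetase, fell with WESF, from 21.3, 20.6 and 19.7 CPM to 14.8, 14 and 13.7 CPM (-0.54 ± 0.07, edgeR adjusted p = 1.38e-06). With EESF it was at 15.3, 20.6 and 18.5 CPM against 21.5, 20.5 and 19 CPM in vehicle B, groups that overlapped, and -0.16 ± 0.10 did not pass (edgeR adjusted p = 0.189). This value ranged from -0.0544 without EESF replicate 1 to -0.268 without EESF replicate 2, where it passed (edgeR adjusted p = 0.04). EESF replicate 1 was the lowest of these libraries.

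Among the other mitochondrial genes, with WESF, AARS2, EARS2 and NARS2 rose (log2 fold changes 0.22, 0.18 and 0.17), and FARS2 and LARS2 fell (both -0.22). With EESF, NARS2, PARS2 and HARS2 rose (0.39, 0.33 and 0.16), and FARS2 and LARS2 fell (-0.33 and -0.21). IARS2, RARS2 and YARS2 passed in neither comparison. HARS1 and HARS2 are read in opposite directions from RefSeq starts 85 bases apart on chromosome 5. Their estimates had opposite signs with both extracts. With WESF HARS1 fell (-0.25 ± 0.05, edgeR adjusted p = 0.000319) and HARS2, at 0.07 ± 0.06, did not pass (edgeR adjusted p = 0.3). With EESF HARS2 rose (0.16 ± 0.06, adjusted p = 0.0371) and HARS1, at -0.06 ± 0.05, did not pass (edgeR adjusted p = 0.326).

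For 13 amino acids 1 cytosolic and 1 mitochondrial gene could be set side by side. Of all genes tested, 34.3% were called higher and 34.6% lower with high-dose WESF, and 29.3% and 28.7% with high-dose EESF. With high-dose WESF both genes rose for 5 amino acids (alanine, methionine, asparagine, threonine and valine). The cytosolic gene rose while the mitochondrial gene fell for 4 (cysteine, leucine, serine and tryptophan). The cytosolic gene rose alone for arginine and tyrosine, and it fell alone for histidine and isoleucine. With high-dose EESF both rose for 4 (methionine, asparagine, threonine and valine), and the opposite calls remained for 3 (cysteine, leucine and tryptophan). The cytosolic gene had the larger log2 fold change in 9 of the 13 pairs with WESF and in 7 of the 13 with EESF. Threonine and valine were the pairs in which the mitochondrial gene rose more with WESF, by 0.83 against 0.34 and by 0.56 against 0.14, beside histidine and isoleucine, in which the mitochondrial genes were not called.

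**Figure D4:**
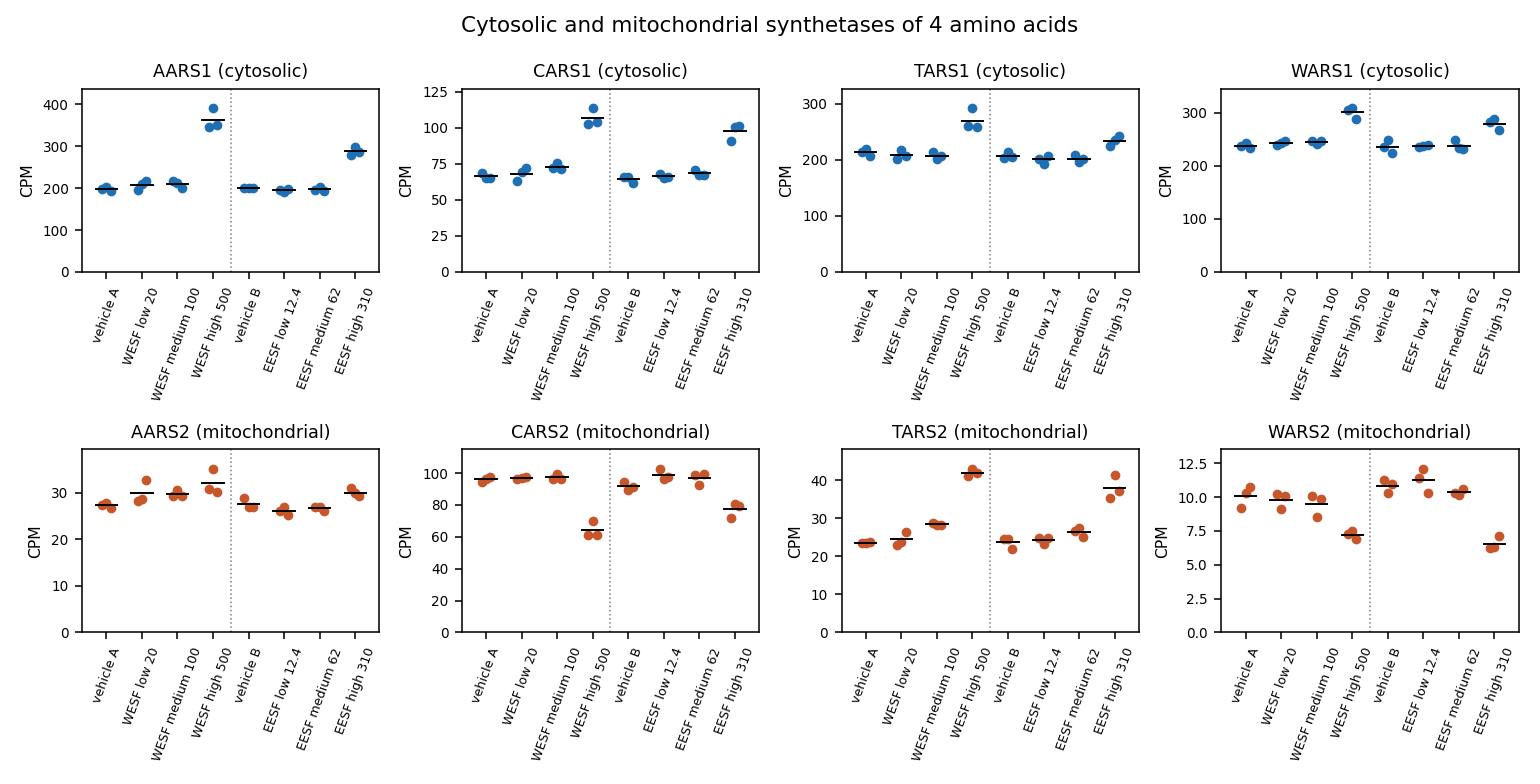
CPM in every library (points) and group means (lines) of the cytosolic gene (upper row) and the mitochondrial gene (lower row) for alanine, cysteine, threonine and tryptophan, by group with the dose in µg/mL. The vertical axes start at 0 and differ between panels. At the high doses CARS1 lies above and CARS2 below the vehicles, WARS1 lies above and WARS2 below, and TARS2 shows a larger relative increase than TARS1.

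The change with EESF was tested against the change with WESF at the high dose, in 1 fit of 12 libraries, although the doses (310 and 500 µg/mL) differed. Of the 35 genes 9 passed: 4 had a more positive change with EESF and 5 a more negative one, where 12.7% of the 13376 genes tested were called in the first and 13.3% in the second direction. AARS1 (-0.35 ± 0.07, edgeR adjusted p = 0.00226), GARS1 (-0.30 ± 0.06), EPRS1 (-0.28 ± 0.06), RARS1 (-0.28 ± 0.06) and VARS2 (-0.34 ± 0.09) rose with both extracts and less with EESF. FARSA rose more with EESF (0.31 ± 0.08, adjusted p = 0.00861). CARS2 fell with both extracts and less with EESF (0.34 ± 0.08, adjusted p = 0.0056).

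FARSB and SARS2 also passed the test of the difference. FARSB was at 82.7, 81.8 and 82.4 CPM in vehicle A and 77.6, 78 and 78.2 CPM with high-dose WESF. Vehicle B held 85.2, 84.7 and 85.9 CPM of it and high-dose EESF 93.5, 89.5 and 93.2 CPM. Its 3 high-dose libraries were below vehicle A and above vehicle B, although neither change passed alone (-0.08 ± 0.04, edgeR adjusted p = 0.106, and 0.11 ± 0.05, adjusted p = 0.0736), and the difference was 0.19 ± 0.06 (adjusted p = 0.0189). SARS2 differed by 0.38 ± 0.13 (adjusted p = 0.0351), a call lost in 8 of the 12 fits that left out 1 library. With the replicate number as a block both calls were lost (adjusted p = 0.072 for FARSB and 0.0683 for SARS2).

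The vehicles themselves gave 0 synthetases that differed between the batches, as did 0% of all genes tested in each direction with edgeR. Before adjustment 371 of 13001 genes (2.85%) were under 0.05. This fit did not pair same-numbered vehicles, although they deviated together over well-counted genes (correlations 0.44, 0.176 and 0.142). With the replicate number as a block, 478 of the 13001 genes tested differed between the vehicles (edgeR adjusted p under 0.05). These counts therefore do not show that the vehicles were equal. The differences between the extracts in the remaining 26 synthetases did not pass, with CARS1, for example, at -0.09 ± 0.08 (SE, adjusted p = 0.411), which does not show that they were equal. MARS1 (-0.16 ± 0.07, adjusted p = 0.0884) passed when same-numbered vehicles were treated as pairs.

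**Figure D5:**
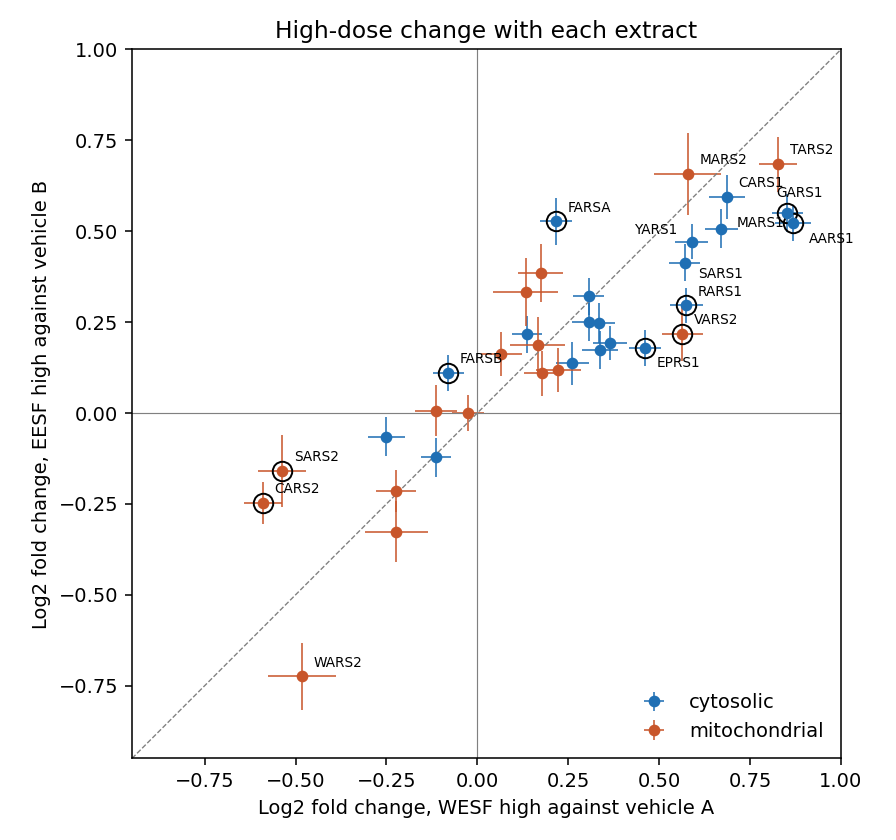
Log2 fold change with high-dose EESF against vehicle B (vertical axis) and with high-dose WESF against vehicle A (horizontal axis) for the 35 genes, coloured by set, with whiskers of 1 SE. Black rings mark the 9 genes whose change differed between the extracts (edgeR adjusted p under 0.05), and the dashed line marks equal change. AARS1, GARS1, RARS1, EPRS1 and VARS2 lie below the line, and FARSA, FARSB, CARS2 and SARS2 above it.

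Genes around the synthetases were read from lists of the pathway, which were chosen with earlier results of these data known. Of 23 genes of the ATF4 pathway other than synthetases, 22 rose and ATF5 fell with each extract at the high dose. Of all genes tested 34.3% rose and 34.6% fell with WESF, and 29.3% and 28.7% with EESF. The median log2 fold changes of the list were 1.05 (WESF) and 0.76 (EESF). In the test of the difference 16 changed less positively and 2 more positively with EESF (13.3% and 12.7% of the 13376 genes tested). DDIT4, an inhibitor of mTORC1 signalling, rose by 1.91 ± 0.05 with WESF and 1.02 ± 0.06 with EESF (edgeR adjusted p = 1.69e-14 and 1.11e-07). TRIB3, a pseudokinase induced by ATF4, rose by 1.84 ± 0.05 and 1.42 ± 0.06 (adjusted p = 2.43e-14 and 4.11e-09). ATF4 itself rose by 0.74 ± 0.04 and 0.52 ± 0.06 (adjusted p = 1.95e-10 and 9.2e-06), a gene named here after its values were seen.

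Genes that act on the charged or uncharged tRNA moved in both directions. Of 4 mitochondrial charging partners 2 fell with WESF, GATB (-0.54 ± 0.08, edgeR adjusted p = 1.68e-05) and QRSL1 (-0.42 ± 0.06, adjusted p = 1.29e-05), which are subunits of the amidotransferase that makes mitochondrial glutaminyl-tRNA. With EESF 1 rose and QRSL1 fell (-0.40 ± 0.08, adjusted p = 0.00102). Of 12 genes of mitochondrial tRNA processing and modification 5 rose and 3 fell with WESF, and 5 rose and 2 fell with EESF. GTPBP3, an enzyme of wobble uridine modification, rose by 0.97 ± 0.07 and 0.71 ± 0.09 (adjusted p = 1.46e-09 and 2.36e-05). PUS1, a pseudouridine synthase, rose by 0.37 ± 0.08 and 0.92 ± 0.08 (adjusted p = 0.000479 and 9.49e-07).

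Of 18 genes of cytosolic tRNA modification 8 rose and 6 fell with WESF, and 8 rose and 3 fell with EESF. CTU1 and CTU2, which together thiolate the wobble uridine of cytosolic tRNAs, rose by 0.35 ± 0.12 and 0.88 ± 0.07 with WESF (edgeR adjusted p = 0.0199 and 3.86e-09) and by 1.02 ± 0.15 and 1.03 ± 0.09 with EESF (adjusted p = 9.91e-05 and 1.41e-06). Of 7 genes listed as cytosolic elongation factors, 1 of which, HBS1L, is a ribosome rescue factor, 2 rose and 2 fell with WESF, and 1 rose and 0 fell with EESF. HBS1L rose with WESF (0.48 ± 0.05, adjusted p = 6.69e-08), and EEF1B2 fell (-0.19 ± 0.05, adjusted p = 0.00506). Of 10 mitochondrial translation factors 2 rose and 2 fell with WESF, and 3 rose and 1 fell with EESF. GFM2, which acts in ribosome recycling, rose by 0.40 ± 0.05 and 0.31 ± 0.05, and MTRFR, a rescue factor, by 0.30 ± 0.06 and 0.44 ± 0.07 (adjusted p = 2.03e-06, 0.000411, 0.000398 and 0.000233). Each of these counts is read beside the shares of all genes called, 34.3% and 34.6% with WESF and 29.3% and 28.7% with EESF.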

How the data were processed

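The authors trimmed reads with Trim Galore 0.6.6 after FastQC 0.11.9, aligned them with STAR 2.7.9a to GRCh38 (written GRCh38 (hg19) in the methods) and counted them with RSEM 1.3.3 on annotation GRCh38.84. They deposited expected counts per gene, without normalization or filter; 10.9% of values are not whole. RSEM divides reads shared by several genes. The strand setting of the counting is not given in the sources used here, so reads from the overlap of HARS1 and HARS2 cannot be told apart.

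Symbols and coordinates came from GENCODE 44 (GRCh38), and lengths from canonical transcripts. The members and gene lists were chosen with earlier results of these data known. Expected counts were rounded, protein-coding genes past edgeR's filterByExpr were kept, and edgeR 4.0.16 (R 4.3.3; TMM, 2-sided quasi-likelihood test) was fitted on the 6 libraries of each comparison, or 12 for the difference between extracts, with Benjamini-Hochberg adjustment over all genes tested. A DEG needed a fold change beyond 1.5 besides an adjusted p under 0.05. CPM used TMM library sizes over all 24 libraries, with a prior count of 1 on the log2 scale. Genes given in every library were DEGs at a high dose, the 4 with the largest differences between extracts, dual-compartment genes and the most and least abundant of each set per kilobase, and FARSA, chosen after its values were seen. Of each pathway list, 2 genes were named by their largest high-dose change at a mean of at least 100 counts. In data simulated for high-dose WESF against vehicle A, edgeR recovered 100% of 2-fold and 91% of 1.5-fold changes. The simulation changed 100 genes by each fold and gave all genes the same dispersion. In the real comparison 9040 of 13129 genes were called, so these recoveries may not hold there. Alternatives were DESeq2 1.42.0, its size factors, no filter, all genes, all 4 groups of a batch, thinning to 1 depth, the replicate block and leaving out each library.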

Additional observations from a re-analysis of the deposited data

Results flagged for a closer look

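For 9 synthetases the change at the high dose differed between the extracts by the interaction test (edgeR adjusted p under 0.05), given as the log2 change with EESF minus that with WESF. Of the 9, 4 changed more positively and 5 less positively with EESF, beside 12.7% and 13.3% of the 13376 genes tested, so the share among the 35 synthetases was near that of all genes. In the cytosolic set the difference was -0.345 for AARS1, -0.3 for GARS1, -0.28 for EPRS1 and -0.277 for RARS1, all of which rose with both extracts, and 0.312 for FARSA and 0.191 for FARSB. In the mitochondrial set it was -0.344 for VARS2, 0.344 for CARS2 and 0.379 for SARS2. FARSB had estimates of opposite sign with the 2 extracts, neither of which passed alone. The doses compared were 500 µg/mL of WESF and 310 µg/mL of EESF, and extract and batch cannot be told apart.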

How the results depend on the processing

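Most results were stable under the alternatives. Of 187 recomputed counts of called synthetases 173 stayed within 1.5 times the reported count, and of 390 recomputed high-dose changes of the named synthetases 381 kept their direction and call, with VARS2 losing and FARSB, QARS1 and SARS2 gaining calls under EESF in the rest. The fold-change threshold of DEGs was also lost by CARS2 (WESF, all 4 groups of the batch), YARS1 (WESF, thinned) and CARS1 (EESF, all genes of the table), and was gained with WESF by RARS1 and MARS2 when thinned and, each without 1 library, by RARS1, MARS2 and VARS2 with WESF and FARSA with EESF. When 1 library was left out, the called genes of the cytosolic set numbered 16 to 18 with high-dose WESF and 14 to 17 with high-dose EESF. At lower doses the cytosolic count ranged from 0 to 2 with medium-dose WESF and from 0 to 3 with low-dose EESF, and the mitochondrial count from 0 to 1 in both. With the replicate block the mitochondrial count was 0 for medium-dose WESF and 1 for low-dose EESF, and with all 4 groups of the batch the cytosolic count for low-dose EESF was 0.

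Leaving out 1 library gave median log2 fold changes of 0.32 to 0.37 (cytosolic, high-dose WESF), 0.0344 to 0.0589 (cytosolic, medium-dose WESF), 0.236 to 0.279 (cytosolic, high-dose EESF), 0.0648 (without vehicle A replicate 3) to 0.126 (mitochondrial, high-dose WESF), 0.0804 to 0.138 (mitochondrial, high-dose EESF) and -0.00512 to 0.0541 (mitochondrial, medium-dose EESF). Thinning to the lowest total gave 0.0603 for the mitochondrial set with high-dose WESF, and testing all genes of the table gave 0.231 for the cytosolic set with high-dose EESF. The uncalled difference between the extracts changed sign for KARS1 (-0.0137 to 0.0487) and MARS2 (-0.00159 to 0.122) when 1 library was left out. The cause of these shifts was not tested.

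Correlations between same-numbered libraries of a dose and its vehicle had no common sign, from -0.396 to 0.201 over 10885 well-counted genes. At the high doses they ran from -0.396 to 0.0501, and the numbers were not read as pairs. The highest were 0.201 (low-dose WESF replicate 2) and 0.175 (low-dose EESF replicate 1), similar in size to the lower correlations between vehicles. Same-numbered vehicles of the 2 batches were positively correlated throughout, at 0.44, 0.176 and 0.142 over the same genes (0.0966, 0.0074 and 0.0127 over all genes tested). A block of the vehicles alone, added after seeing the data, made the difference of MARS1 (-0.163) a call. The replicate block changed the calls given beside FARSB, SARS2 and TARS2. Over all genes, replicates differed by more than sampling noise. The SE of MARS2, the member with the fewest counts, was 0.09 with high-dose WESF and 0.11 with high-dose EESF, against 0.05 and 0.05 for AARS1 at the same number of libraries, so changes of the sparse members were less precisely measured.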
